A study of Mus musculus with 6 samples.

Results

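The genes described here encode translation initiation factors or proteins named after them, such as the kinases of eIF2 alpha and the repressors that bind eIF4E. They are the protein-coding genes of the count table whose symbol opens with Eif and a digit from 1 to 6, 55 of the 35122 genes in all. This family was picked because Eif4a2 rose in the comparison reported below, so the values of Eif4a2 and of its relatives in that comparison chose the members and are given as a description. No p is given for a member, and counts of members past a threshold stand only beside the share of all genes past it and support nothing. RNA came from the floating adipocyte layer of collagenase-digested epididymal fat of male C57BL/6 mice on standard chow, 1 library per mouse. The 3 control mice carried loxP sites around exon 5 of both copies of Spi1, the gene for the ETS transcription factor PU.1 (PU.1 fl/fl), and no Cre. The 3 aPU.1KO mice carried the same floxed alleles and, in addition, a Cre driven by the adiponectin gene's promoter (AdipoqCre PU.1 fl/fl), which is active in adipocytes, so that other cells of the fat pad are not its target. Both groups were 10 to 11 months old by the sample labels, while the paper's text gives an age over 1 year. The question of the comparison was what loss of PU.1 in adipocytes does to the adipocyte transcriptome of ageing mice.

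Initiation factors bring the small ribosomal subunit, loaded with the initiator tRNA, to the capped end of an mRNA and move it to the start codon. The complex eIF4F joins the cap-binding protein eIF4E, the scaffold eIF4G and the RNA helicase eIF4A, which unwinds structure in the leader of the mRNA. The 4E-binding proteins hold eIF4E away from the scaffold until mTORC1 phosphorylates them. 4E-BP1 was known early as a protein that insulin causes to be phosphorylated in fat cells. A separate switch acts on eIF2, which carries the initiator tRNA: stress kinases phosphorylate its alpha subunit and thereby block its recycling by eIF2B. Eif4a1 and Eif4a2 encode the helicases of eIF4F, and Eif4a3 encodes a related helicase of the exon junction complex, which marks spliced mRNA in the nucleus.

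PU.1 binds DNA through the ETS core GGAA, and the promoters of 3 members are shown for that reason. They are Eif4a2, the gene by which the family was chosen, Eif4a1, its nearest relative, and Eif2ak2. Eif2ak2 is a member that was lower in the adipocyte fraction of every aPU.1KO mouse. Each run is the 250 bases before the RefSeq transcript start (GRCm38.p6), written 5′ to 3′ on the strand of the gene, with GGAA or its reverse complement TTCC in capitals.
Eif4a2, chr16:23107218-23107467, plus strand: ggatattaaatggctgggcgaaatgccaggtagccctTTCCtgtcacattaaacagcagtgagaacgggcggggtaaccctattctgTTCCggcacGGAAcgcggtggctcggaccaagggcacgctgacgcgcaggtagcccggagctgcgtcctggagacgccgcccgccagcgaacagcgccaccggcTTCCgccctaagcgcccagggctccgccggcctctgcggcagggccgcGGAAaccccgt
Eif4a1, chr11:69672424-69672673, minus strand: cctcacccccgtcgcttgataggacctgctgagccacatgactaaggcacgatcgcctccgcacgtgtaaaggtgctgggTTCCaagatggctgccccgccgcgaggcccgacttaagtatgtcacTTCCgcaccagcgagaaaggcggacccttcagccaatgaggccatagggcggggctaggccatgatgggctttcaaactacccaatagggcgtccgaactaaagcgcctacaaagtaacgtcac
Eif2ak2, chr17:78882573-78882822, minus strand: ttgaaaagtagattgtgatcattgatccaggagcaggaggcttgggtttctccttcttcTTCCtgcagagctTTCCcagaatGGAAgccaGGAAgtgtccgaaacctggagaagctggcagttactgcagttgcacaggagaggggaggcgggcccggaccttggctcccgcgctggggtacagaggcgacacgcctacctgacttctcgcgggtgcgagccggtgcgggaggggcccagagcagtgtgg
The Eif4a2 run holds 5 ETS cores, the Eif4a1 run 2 and the Eif2ak2 run 4. Over all 32851 RefSeq promoters of this length the median was 3, and 18.0% held 5 or more. In windows that reach 50 bases past the start, GGAA on either strand was found in 42 of the 43 members with a promoter entry (97.7%) and in 96.5% of all 27025 genes with one. The longer word GAGGAA, the core of the classical PU box, was found on either strand in 10 of the 43 members (23.3%) and in 31.3% of all those genes. None of the 3 promoters shown was among those 10. A match describes the letters of the window and is no measure of binding.

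The libraries held between 20550252 and 24310144 counts in aPU.1KO mice and 69283842, 22770714 and 23392407 counts in control mice 1, 2 and 3, so that control mouse 1 was sequenced most deeply. Levels are given as counts per 1000000 library counts (CPM) after scaling by the TMM method. Spi1 was measured at 24.3, 6.35 and 26.7 CPM in control mice 1, 2 and 3 and at 3.20, 1.22 and 4.17 CPM in the aPU.1KO mice. These are counts over the whole gene, so that transcripts without exon 5 are still counted. All 10 adipocyte markers checked (such as Adipoq and Plin1) were detected, and their summed level was 26700.0 to 29120.0 CPM in control mice and 32370.0 to 38920.0 CPM in aPU.1KO mice. In 9 of the 10 every aPU.1KO mouse lay above every control mouse, where 16.7% of all genes tested did. In the other, Lep (leptin), every aPU.1KO mouse lay below (4674, 4551 and 5029 CPM against 2855, 1565 and 3949 CPM), where 15.5% of all genes tested did. The fraction was not free of other cells. The 10 macrophage markers summed to 1623, 423.8 and 1582 CPM in control mice 1, 2 and 3 and to 302.5, 182.2 and 273.4 CPM in the aPU.1KO mice, and none of them had a median of 0 over the libraries. The 10 progenitor and fibroblast markers summed to 1394 to 1863 CPM in control and to 757.4 to 1085 CPM in aPU.1KO mice. The sums of 7 endothelial markers (533.2 to 764.7 against 320.1 to 688.8 CPM), 5 mesothelial markers (2.94 to 14.6 against 4.88 to 6.42 CPM) and 7 lymphocyte markers (3.59 to 5.51 against 1.42 to 3.69 CPM) overlapped between the groups. The 5 hepatocyte markers summed to 36.9 to 58.0 CPM in control and to 17.8 to 23.7 CPM in aPU.1KO mice. All 5 were lower in every aPU.1KO mouse, where 15.5% of all genes tested were, with Fgb at 0 in all 3 aPU.1KO mice. The part of these markers in the results below was not tested. In bulk RNA, fewer cells of a type and less RNA per cell cannot be told apart. Control mouse 2 thus lay near the aPU.1KO mice in Spi1 and in macrophage markers, and for some results below the value without it is given.

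Of the 55 members, 54 had enough counts to enter the comparison. The exception was Eif4e1b, the oocyte form of eIF4E, with 21, 7 and 6 counts in the control mice and 2, 10 and 5 counts in the aPU.1KO mice. Of the 54, 46 had a log2 fold change above 0 and 8 below, 85.2% above against 52.0% of all 13925 genes tested. The shifts were small, with a median log2 fold change of 0.12 against 0.01 over all genes tested. The median size of the change, whatever its direction, was 0.14 for the members and 0.21 for all genes, and 49 of the 54 members lay within 0.3 of 0. Eif4a2 and Eif4ebp1 were the only 2 members beyond 0.5, a size that 22.2% of all genes tested passed. Without Eif4a2, the members' median was 0.12. Over the other scalings, filters and tools and with each mouse left out, between 43 and 46 members were above 0, not always the same genes.

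Counted mouse by mouse, 20 members had all 3 aPU.1KO mice above all 3 control mice, where 16.7% of all genes tested did, and 2 members (Eif4g3 and Eif2ak2) had them all below, where 15.5% of all genes did. In the other 32 the groups overlapped. The quasi-likelihood test of edgeR, with p adjusted by the method of Benjamini and Hochberg, put 1 member, Eif4a2, past an adjusted p of 0.05 in the higher direction, against 0.0575% of all genes, and 0 in the lower direction, against 0.18% of all genes. At an unadjusted p under 0.05 it counted 9 members higher, against 11.9% of all genes, and 2 lower, against 13.7% of all genes. These counts fell to 3 and 0 without control mouse 1 and likewise without control mouse 3, the lower count was 1 without the second mouse of either group, and over all mice left out in turn the counts ran from 3 to 10 higher and from 0 to 2 lower. DESeq2 put 4 members higher at its adjusted p (Eif4a2, Eif4ebp1, Eif1 and Eif1b), against 4.69% of all genes, and 0 lower, against 8.73% of all genes, and at an unadjusted p under 0.05 it counted 7 higher (11.4% of all genes) and 2 lower (14.9% of all genes). The edgeR call of Eif4a2 was lost when any mouse other than control mouse 2 was left out, and with a minimum of 10 counts in every library. Since the family was selected on this contrast, nothing is read from these counts, nor from the counts by role that follow.

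**Figure D1:**
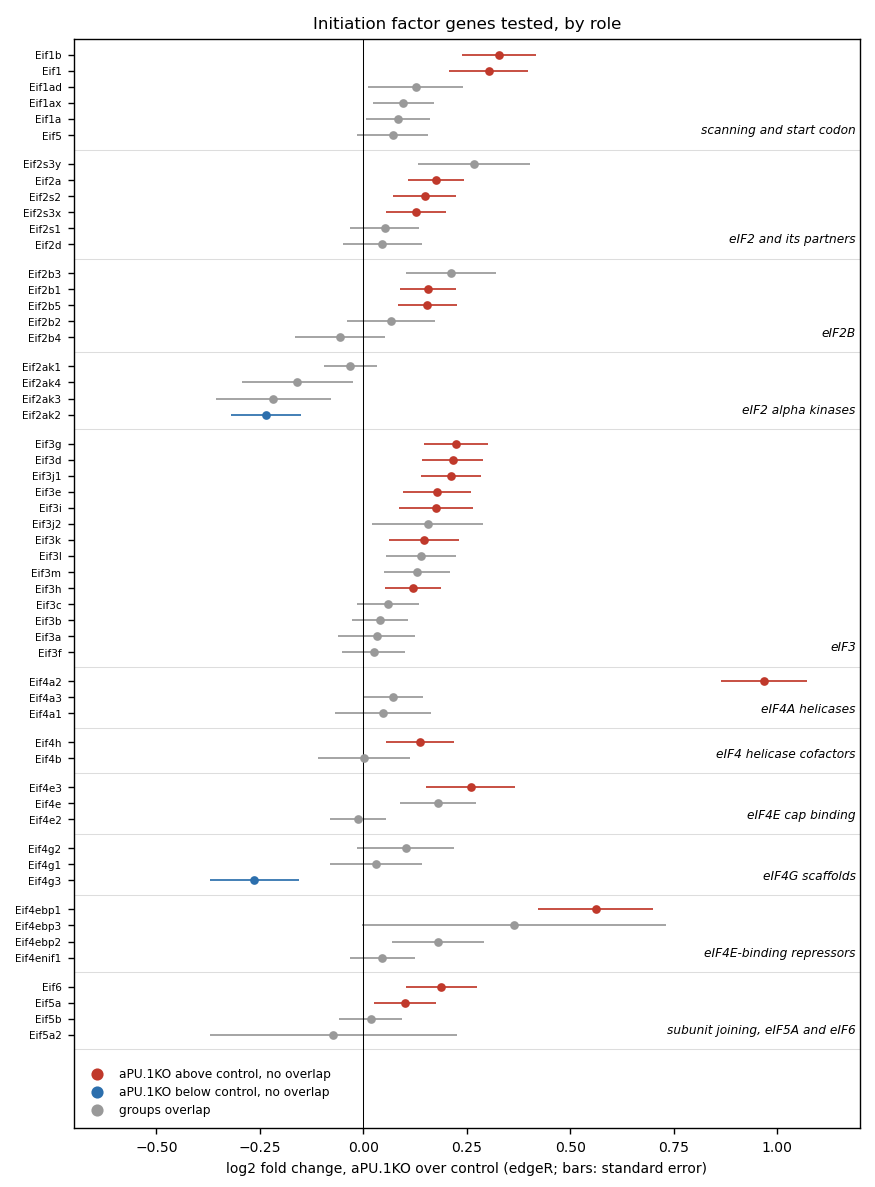
Log2 fold change (aPU.1KO over control) of the 54 initiation factor genes tested, grouped by role, with bars for the standard error of the edgeR fit. Red points mark genes whose 3 aPU.1KO mice all lay above the 3 control mice, blue points those that all lay below, and gray points genes whose groups overlap. Eif4a2 (0.97) and Eif4ebp1 (0.56) stand to the right of the other members, and the 4 eIF2 alpha kinases lie left of 0.

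Among the eIF4A helicases, Eif4a2 was higher in the adipocyte fraction of aPU.1KO mice while the levels of Eif4a1 and Eif4a3 overlapped between the groups. Eif4a2 (ENSMUSG00000022884; chromosome 16, 23107444 to 23114136, plus strand, GRCm38) was measured at 269.0, 295.4 and 265.6 CPM in control mice 1, 2 and 3 and at 584.1, 555.3 and 483.2 CPM in aPU.1KO mice 1, 2 and 3. The lowest aPU.1KO mouse was well above the highest control mouse. The means were 276.7 ± 16.3 and 540.8 ± 52.0 CPM (SD, n = 3 each), a log2 fold change of 0.97 (standard error, SE, 0.10). Leaving out each mouse in turn gave values from 0.90 to 1.04. By signed log2 fold change, Eif4a2 ranked 199 of the 13925 genes tested. Control mouse 2, with the lowest macrophage and Spi1 levels of its group, had the highest Eif4a2 level of its group, and without it the log2 fold change was 1.01. The part of the cell makeup in the difference was not tested.

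Eif4a1 (ENSMUSG00000059796; chromosome 11, 69666936 to 69672423, minus strand) was at 435.1, 378.2 and 431.3 CPM in the control mice and at 433.4, 476.2 and 377.3 CPM in the aPU.1KO mice. Its lowest and its highest values both came from aPU.1KO mice, and the log2 fold change of 0.05 (SE 0.12) was -0.03 in the absence of control mouse 2 and -0.04 in that of aPU.1KO mouse 2. Eif4a3 was at 44.4, 43.9 and 43.1 CPM in the control mice and at 43.4, 48.0 and 46.7 CPM in the aPU.1KO mice, with a log2 fold change of 0.07 (SE 0.07).

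Within a library, the ratio of Eif4a2 to Eif4a1 does not depend on how libraries are scaled. The ratio of counts was 0.618, 0.781 and 0.616 in the control mice and 1.35, 1.17 and 1.28 in the aPU.1KO mice. Eif4a1 thus had more counts than Eif4a2 in every control mouse and fewer in every aPU.1KO mouse. Leaving out each mouse in turn kept the log2 difference between the groups from 0.86 to 1.03. Per kilobase of the longest protein-coding transcript, Eif4a2 made up 30.5 ± 2.93% of the 2 genes' summed level in control mice and 45.3 ± 1.82% in aPU.1KO mice (SD, n = 3 each). The summed level of both genes was 336.0 ± 12.0 CPM per kb in control and 441.5 ± 44.2 CPM per kb in aPU.1KO mice. The level of Eif4a2 against Eif4a1 depends on the length used. The mean of the per-mouse ratios per kilobase was 0.44 in control and 0.83 in aPU.1KO mice with those transcripts, and 0.55 and 1.03 when counts were divided by all exonic bases of each gene.

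**Figure D2:**
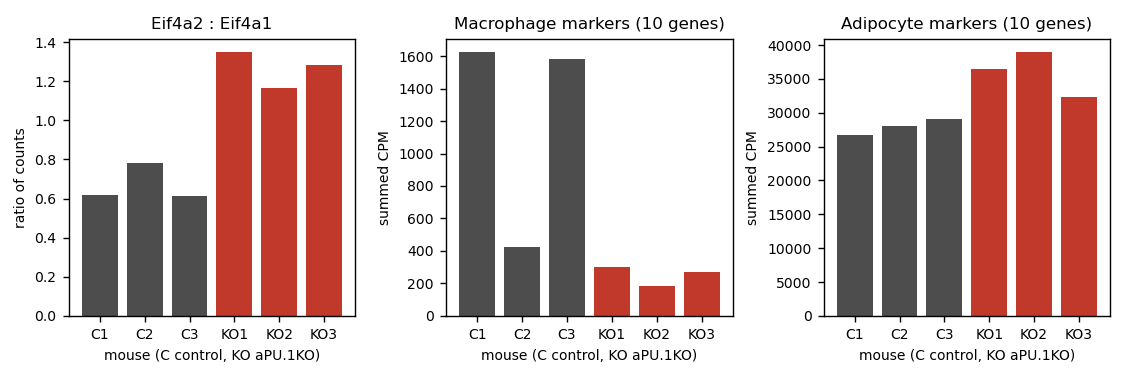
Ratio of Eif4a2 to Eif4a1 counts (left), summed CPM of 10 macrophage markers (middle) and of 10 adipocyte markers (right) in each of the 3 control (C, gray) and 3 aPU.1KO (KO, red) mice, 1 bar per mouse from 0. The ratio is below 1 in the control mice (0.616 to 0.781) and above 1 in the aPU.1KO mice (1.17 to 1.35), and control mouse 2 has a macrophage sum of 423.8 CPM against 1623 and 1582 CPM in the other control mice.

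The helicases resemble each other in sequence, which matters when reads are shared out among genes. The coding sequences of Eif4a1 (406 codons) and Eif4a2 (408 codons) were identical at 77.6% of aligned bases, and those of Eif4a2 and Eif4a3 at 64.6%. Of the words of 31 bases in Eif4a2 transcripts, 0.0% occurred in Eif4a1 transcripts, and 19.6% occurred in transcripts of any other gene. The processed pseudogene Gm2999 held 5.10% of these words and had between 0 and 1 counts per library. Of the words in Eif4a1 transcripts, 31.1% occurred in transcripts of any other gene. The processed pseudogene Eif4a-ps4 held 25.6% of the Eif4a1 words and had between 0 and 13 counts per library. Rfc4, a subunit of the DNA clamp loader, lies on the other strand and overlaps the exons of Eif4a2 by 194 bases. Reads from that stretch cannot be told apart without strand. Rfc4 was at 5.54, 5.25 and 4.24 CPM in the control mice and 7.98, 8.001 and 7.91 CPM in the aPU.1KO mice, a log2 fold change of 0.66 (SE 0.15) that did not pass edgeR's quasi-likelihood test (adjusted p = 0.0786) and passed DESeq2 (adjusted p = 0.00805). Eif4a2 has 25 transcripts in GENCODE M21, of which 6 are protein-coding, 15 retain an intron and 3 are marked for nonsense-mediated decay. The deposited gene counts are sums over transcripts, and which of these transcripts the authors' annotation held is not known. Small nucleolar RNAs that lie inside Eif4a2 and Eif4a1 were not analysed here.

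**Figure D3:**
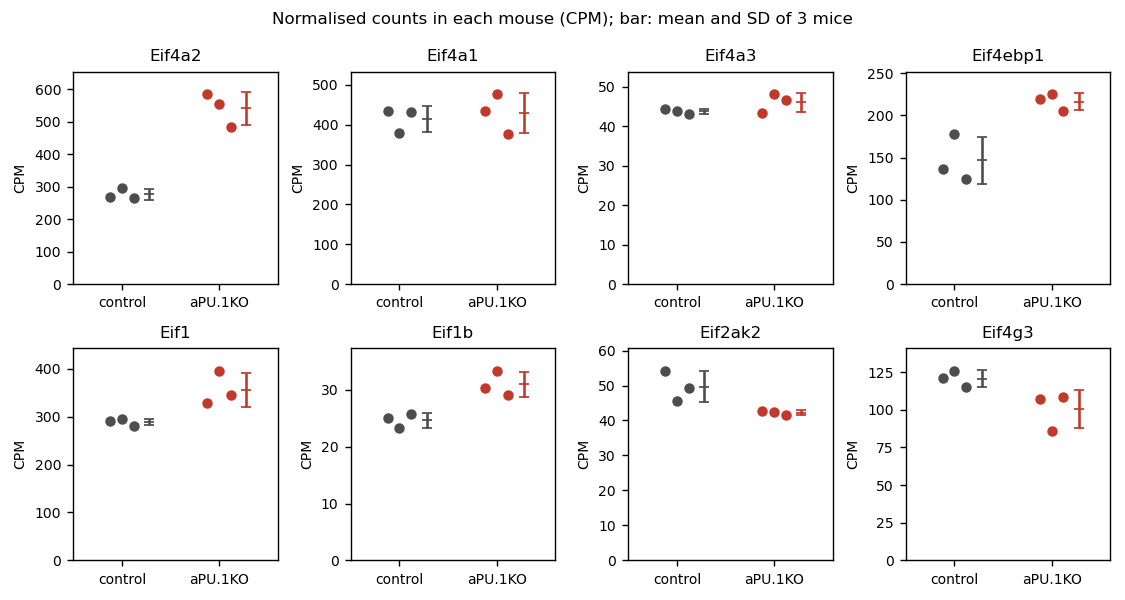
Level (CPM) in each mouse of 8 initiation factor genes, with control mice in gray and aPU.1KO mice in red, each vertical axis from 0, and bars for the mean and SD of 3 mice. The aPU.1KO mice lie above every control mouse for Eif4a2, Eif4ebp1, Eif1 and Eif1b and below every control mouse for Eif2ak2 and Eif4g3, and the groups overlap for Eif4a1 and Eif4a3.

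The 4 genes for eIF4E-binding repressors all had log2 fold changes above 0, as did 52.0% of all genes tested, except Eif4ebp3 without aPU.1KO mouse 2 (-0.09). Eif4ebp1, which encodes 4E-BP1, was at 136.9, 178.3 and 124.9 CPM in the control mice and at 218.9, 224.9 and 205.2 CPM in the aPU.1KO mice. The groups did not overlap, and the log2 fold change was 0.56 (SE 0.14), from 0.45 to 0.72 with each mouse left out in turn. Control mouse 2 was again the control nearest to the aPU.1KO mice, and without it the log2 fold change was 0.72. Its relative Eif4ebp2 was at 175.5, 200.4 and 151.5 CPM against 197.1, 203.6 and 197.4 CPM, and the groups overlapped. Eif4ebp3 was low, between 1.18 and 2.67 CPM in any mouse, with a log2 fold change of 0.36 (SE 0.37). Part of its exons is shared with an overlapping gene on the same strand, so its counts are uncertain. Eif4enif1, the transporter of eIF4E into the nucleus, had a log2 fold change of 0.05 (SE 0.08).

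Of the cap-binding genes, Eif4e, the main cap-binding protein, was at 67.6, 72.3 and 61.1 CPM in the control mice and at 77.5, 80.3 and 69.9 CPM in the aPU.1KO mice, and the groups overlapped. The ratio of Eif4ebp1 to Eif4e counts was 2.03, 2.47 and 2.04 in the control mice and 2.83, 2.80 and 2.94 in the aPU.1KO mice, so that the groups did not overlap. Eif4e3, a cap-binding relative, was at 78.8, 87.2 and 75.0 CPM against 88.2, 109.0 and 91.1 CPM. Its log2 fold change was 0.26 (SE 0.11), and 0.16 without aPU.1KO mouse 2. Exons of Eif4e3 overlap those of Gm20696 on the same strand by 373 bases, so its counts are uncertain. The lowest aPU.1KO value of Eif4e3 was only slightly above the highest control value. Eif4e2, which binds the cap and represses translation, had a log2 fold change of -0.01 (SE 0.07).

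The eIF4G scaffolds did not share a direction. Eif4g3 was at 121.0, 125.9 and 114.8 CPM in the control mice and at 107.4, 85.6 and 108.4 CPM in the aPU.1KO mice, with no overlap. Its log2 fold change was -0.26 (SE 0.11), and -0.16 without aPU.1KO mouse 2. Eif4g1, the scaffold with the highest level per length, was at 744.8, 852.8 and 691.4 CPM against 814.7, 743.3 and 781.2 CPM. Its groups overlapped, and its log2 fold change of 0.03 turned to -0.04 without control mouse 3 and to -0.01 without aPU.1KO mouse 1. Without control mouse 2 it was 0.11. Eif4g2, a relative that lacks the site for eIF4E, had a log2 fold change of 0.10 (SE 0.12). Of the helicase cofactors, Eif4h was at 194.3, 192.9 and 203.4 CPM against 207.5, 234.8 and 207.0 CPM, with no overlap, and Eif4b had a log2 fold change of 0.00 (SE 0.11).

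All 6 members listed here under scanning and start codon choice had log2 fold changes above 0, from 0.07 to 0.33, as did 52.0% of all genes tested. Eif1, which guards the choice of the start codon, was at 290.3, 294.7 and 281.3 CPM in the control mice and at 327.6, 396.1 and 344.9 CPM in the aPU.1KO mice, a log2 fold change of 0.30 (SE 0.10). Its paralog Eif1b was at 25.0, 23.2 and 25.8 CPM against 30.4, 33.4 and 29.1 CPM, a log2 fold change of 0.33 (SE 0.09). In neither gene did the groups overlap. Their coding sequences were identical at 81.1% of bases, and 0.0% of the 31-base words of Eif1 transcripts occurred in those of Eif1b. Of the Eif1 words, 23.0% occurred in transcripts of any other gene, 14.5% in those of Emd. For Eif5, which triggers GTP hydrolysis on eIF2 at the start codon, and for Eif1a, Eif1ax and Eif1ad the groups overlapped.

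All 6 genes of eIF2 and its partners also had log2 fold changes above 0, as did 52.0% of all genes tested. Eif2s1 (-0.02) and Eif2d (-0.04) fell below 0 with an aPU.1KO mouse left out (mouse 1 and mouse 2). Eif2s2, the beta subunit, was at 120.1, 124.6 and 116.2 CPM in the control mice and at 127.4, 130.0 and 142.5 CPM in the aPU.1KO mice. Eif2s3y, the copy of the gamma subunit on the Y chromosome, was at 58.9, 62.3 and 52.8 CPM against 76.5, 76.5 and 56.6 CPM. Here aPU.1KO mouse 3 fell among the control mice. Its X-linked counterpart Eif2s3x, identical at 86.3% of coding bases, was at 154.9, 160.0 and 144.5 CPM against 169.7, 166.6 and 165.4 CPM, with no overlap and a log2 fold change of 0.13 (SE 0.07). For Eif2s1, the alpha subunit that the stress kinases phosphorylate, the groups overlapped with a log2 fold change of 0.05 (SE 0.08). Eif2a, which can deliver the initiator tRNA in another way, did not overlap between the groups (log2 fold change 0.17 (SE 0.07)).

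Of the 5 subunits of eIF2B, the exchange factor that reloads eIF2 with GTP, 4 had log2 fold changes above 0, as did 52.0% of all genes, and Eif2b1 and Eif2b5 were higher with no overlap, as were 16.7% of all genes. Eif2b5, the catalytic subunit, was at 52.5, 50.9 and 54.3 CPM in the control mice and at 60.0, 55.3 and 60.3 CPM in the aPU.1KO mice, a log2 fold change of 0.15 (SE 0.07). Eif2b4 had a log2 fold change of -0.06 (SE 0.11).

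The 4 kinases of eIF2 alpha were the one role in which no member had a log2 fold change above 0, where 52.0% of all genes tested did. Eif2ak2, the kinase PKR that senses double-stranded RNA, was at 54.2, 45.4 and 49.3 CPM in the control mice and at 42.7, 42.5 and 41.5 CPM in the aPU.1KO mice. The groups did not overlap, and the log2 fold change was -0.23 (SE 0.08), from -0.30 to -0.18 with each mouse left out in turn. Control mouse 2, which had the lowest macrophage sum of the controls, was the control nearest to the aPU.1KO mice, and without it the log2 fold change was -0.30. The part of macrophage RNA in this difference was not tested. Eif2ak3, the kinase PERK of the endoplasmic reticulum, was at 27.3, 24.8 and 27.9 CPM against 24.7, 18.5 and 25.7 CPM, and the groups overlapped. Eif2ak4, the amino acid sensor GCN2, was at 17.3, 17.3 and 16.7 CPM against 18.1, 14.5 and 13.3 CPM, with aPU.1KO mouse 1 the highest of all 6. Eif2ak1, the heme-regulated kinase HRI and the kinase with the highest level per length, was at 51.1, 51.1 and 53.3 CPM against 49.0, 51.5 and 51.5 CPM, a log2 fold change of -0.03 (SE 0.06).

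The 14 genes of eIF3, the large scaffold on the small ribosomal subunit, had log2 fold changes from 0.03 to 0.22, with a median of 0.14. All lay above 0, as did 52.0% of all genes tested, except that Eif3f was at -0.04 without control mouse 2 and Eif3a at -0.04 without control mouse 3. In 7 of them, against 16.7% of all genes, every aPU.1KO mouse lay above every control mouse (Eif3g, Eif3d, Eif3j1, Eif3e, Eif3i, Eif3k and Eif3h). Eif3e, the member with the highest level per length, was at 123.2, 126.3 and 114.3 CPM in the control mice and at 145.1, 127.6 and 138.6 CPM in the aPU.1KO mice, a log2 fold change of 0.18 (SE 0.08). Eif3a, the largest subunit, was at 359.1, 376.4 and 315.0 CPM against 352.7, 367.9 and 353.7 CPM, and the groups overlapped. Eif3j1 and Eif3j2 are near copies, with 99.2% of coding bases identical and 94.0% of the 31-base words of Eif3j2 present in Eif3j1, so that their separate values are uncertain. Eif3d, Eif3j1 and Eif5b overlap exons of a gene on the other strand by more than a kilobase, and reads from there cannot be assigned without strand.

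Among the remaining members, Eif5a, whose protein carries hypusine and eases peptide bond formation, was at 303.8, 285.3 and 308.4 CPM in the control mice and at 323.7, 322.3 and 316.4 CPM in the aPU.1KO mice. The groups did not overlap, though the log2 fold change was only 0.10 (SE 0.08). Eif5a2, its paralog with 72.3% of coding bases identical, was at 9.13, 9.67 and 8.25 CPM against 7.01, 5.79 and 12.9 CPM. Its log2 fold change of -0.07 (SE 0.30) turned to 0.05 without aPU.1KO mouse 1 and to 0.14 without aPU.1KO mouse 2, and was -0.49 without aPU.1KO mouse 3. Eif6, which keeps the large ribosomal subunit from joining too early, was at 39.2, 37.0 and 41.6 CPM against 43.3, 48.3 and 42.6 CPM, with no overlap. Eif5b, the GTPase of subunit joining, had a log2 fold change of 0.02 (SE 0.08).

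Levels between genes can be compared per length of mRNA. In control mice the mean levels ran from 0.130 CPM per kb for Eif4e1b to 233.9 CPM per kb for Eif4a1. Eif4a1 was followed by Eif1 (218.4 CPM per kb), Eif5a (208.2), Eif4g1 (135.3), Eif4g2 (121.0) and Eif4a2 (102.2). In aPU.1KO mice the mean level of Eif4a2 was 199.7 CPM per kb, between Eif5a (223.3) and Eif4g1 (138.3). Eif4ebp1 had a mean of 73.5 CPM per kb in control mice and 108.3 CPM per kb in aPU.1KO mice. The values of 1 gene in the 2 groups were close on this scale for nearly all members.

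**Figure D4:**
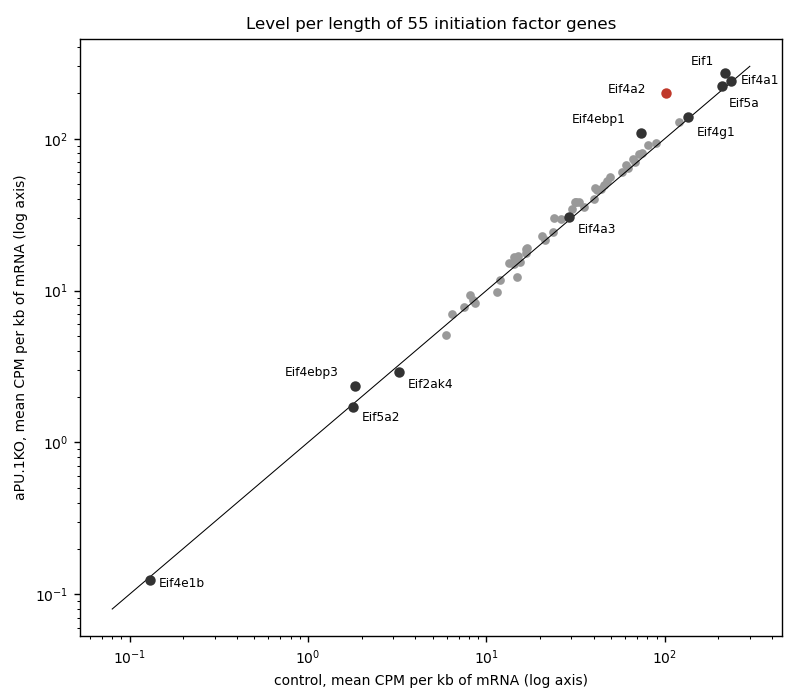
Mean level of each of the 55 initiation factor genes in aPU.1KO mice (vertical) against control mice (horizontal), in CPM per kb of mRNA on log axes, with the line of equal levels. Each point is a gene and the mean of 3 mice per group. Most points lie close to the line from 0.130 to 233.9 CPM per kb in control mice, and Eif4a2 (red) lies above it, at 102.2 against 199.7 CPM per kb.

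Other genes of translation were grouped in lists by function, and the genes named from each list are among those with the largest changes on it. On none of these lists did edgeR's quasi-likelihood test put a gene past an adjusted p of 0.05. Without control mouse 2 it put 4 genes of the lists past it, and in that same fit it put 1193 of all genes past it. Over all genes tested, at an unadjusted p under 0.05, 11.9% were higher and 13.7% lower, and DESeq2 called 4.69% higher and 8.73% lower. Of 12 elongation and termination factors tested, 2 were higher at an unadjusted p under 0.05 and 0 were lower, with a median log2 fold change of 0.10, and DESeq2 called 1 higher (Gspt2). Gspt2, a paralog of the release factor eRF3, had a log2 fold change of 0.65 (SE 0.19, adjusted p = 0.108 by edgeR's quasi-likelihood test). Of 19 accessory initiation factors, 4 were higher at an unadjusted p under 0.05 and 1 was lower, with a median of 0.14, and DESeq2 called 1 lower (Cyfip1). Cyfip1, which binds eIF4E as part of a repressor complex, had a log2 fold change of -0.38 (SE 0.10, adjusted p = 0.0948 by the same test). Paip1, a partner of the poly(A)-binding protein, was 0.33 (SE 0.12) and Mcts1, which acts in recycling and reinitiation with Denr, was 0.31 (SE 0.09), both on the log2 fold change scale.

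Of 20 genes of mTORC1 and MNK signaling to initiation, 2 were higher at an unadjusted p under 0.05 and 1 was lower, with a median log2 fold change of -0.07, and DESeq2 called 1 higher (Mknk2) and 1 lower (Rps6ka1). The shares of all genes were 11.9% and 13.7% by the first test and 4.69% and 8.73% by DESeq2. Mknk2, a kinase of eIF4E, was at 471.8, 548.7 and 470.6 CPM in the control mice and at 750.1, 919.2 and 555.3 CPM in the aPU.1KO mice. The groups did not overlap, and the log2 fold change was 0.58 (SE 0.19, adjusted p = 0.123 by edgeR's quasi-likelihood test). Rps6ka1, the kinase RSK1, was at 12.9, 9.98 and 12.4 CPM against 5.79, 6.69 and 6.58 CPM, a log2 fold change of -0.89 (SE 0.15, adjusted p = 0.0722 by the same test). Rps6kb2, an S6 kinase, had a log2 fold change of 0.30 (SE 0.11).

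Of 25 targets of the integrated stress response, the program that follows eIF2 alpha phosphorylation, 4 were higher at an unadjusted p under 0.05 and 4 were lower, with a median log2 fold change of 0.08. DESeq2 called 2 higher (Chac1 and Nupr1) and 2 lower (Slc7a11 and Slc3a2). Of all genes, edgeR had 11.9% higher and 13.7% lower, and DESeq2 4.69% and 8.73%. Chac1, which degrades glutathione, was at 5.26, 5.38 and 6.78 CPM in the control mice and at 7.27, 15.6 and 12.8 CPM in the aPU.1KO mice, a log2 fold change of 1.04 (SE 0.29, adjusted p = 0.0980 by edgeR's quasi-likelihood test). Slc7a11, the cystine transporter, had a log2 fold change of -1.50 (SE 0.46, adjusted p = 0.113 by the same test). Gdf15, a secreted stress cytokine, was at 7.12, 1.88 and 7.65 CPM against 2.49, 2.71 and 0.995 CPM, with control mouse 2 among the aPU.1KO mice. The named genes of this list thus did not share a direction.

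Of 22 genes for cytosolic aminoacyl-tRNA synthetases and partners of their complex, 1 was higher (Mars) and 1 was lower (Iars) at an unadjusted p under 0.05. The median log2 fold change was 0.00, and DESeq2 called 1 lower (Iars), where the shares of all genes were again 11.9%, 13.7% and 8.73%. Of 14 partners of Eif4a3 in the exon junction complex and nonsense-mediated decay, 4 were higher at an unadjusted p under 0.05 and 0 were lower, with a median of 0.16, and DESeq2 called 1 higher (Upf3a). Magohb, a core subunit, had a log2 fold change of 0.56 (SE 0.18, adjusted p = 0.121 by edgeR's quasi-likelihood test). Of 12 genes of the CCR4-NOT deadenylase, a complex with which Eif4a2 has been linked in microRNA repression, 2 were higher at an unadjusted p under 0.05 and 1 was lower, with a median of 0.03, and DESeq2 called 1 lower (Cnot6). Cnot6, a catalytic subunit, had a log2 fold change of -0.41 (SE 0.12, adjusted p = 0.105 by the same test).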

How the data were processed

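RNA of the epididymal adipocyte fraction was sequenced from 3 control and 3 aPU.1KO animals. The authors deposited estimated counts, whole numbers without normalization: reads were quantified per transcript with Salmon and transcript counts summed to genes. The submitters' processing notes name GRCm38, Salmon and FastQC. The Salmon version and annotation are not given in the sources used here. The animal numbers of the labels were replaced by 1 to 3 in each group, lowest first.

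Symbols for 35102 of 35122 identifiers, coordinates and transcripts came from GENCODE M21 (GRCm38), and promoters from RefSeq (GRCm38.p6), which held 43 of the 55 members. Genes were filtered with filterByExpr, scaled by TMM and compared in R 4.3.3 with edgeR 4.0.16 (glmQLFit with its defaults, glmQLFTest, Benjamini-Hochberg adjustment over 13925 genes, threshold 0.05). The fit was tested on simulated data. CPM per kb used the longest protein-coding transcript. Shared words are stretches of 31 bases. With 3 mice a group, an exact permutation test cannot give a two-sided p below 0.1.

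The members and lists were chosen with earlier results of these data known. Values in every mouse are given for the eIF4A genes, the 5 largest rises and 5 largest falls among members whose average log2 CPM is 1 or more, and the member of each role with the highest level per length. Eif4ebp2, Eif4e, Eif2s3x, Eif3a and Eif6 were added after their values were seen. From each list at most 3 genes with an unadjusted p under 0.05 are named, besides Nupr1 and Slc3a2, named as DESeq2 calls after their values were seen.

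Alternatives were RLE and upper quartile scaling, a minimum of 10 counts in every library, no filter, DESeq2 1.42.0, limma-voom (limma 3.58.1), robust dispersion, legacy = FALSE, control library 1 thinned to 22774415 counts, and leaving out each mouse. Figures were drawn with matplotlib 3.10.9.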

Additional observations from a re-analysis of the deposited data

How the results depend on the processing

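The log2 fold change of Eif4a2 was 0.97 and from 0.90 to 1.04 with each mouse left out in turn. It kept its direction, and moved by less than the spread between replicates, under every alternative run. Calls depended on the method and on single libraries. Over all genes, edgeR called 33, against 5 with a minimum of 10 counts in every library, 146 with no filter and 1869 with DESeq2, and from 0 to 1193 with each mouse left out: 0 without control mouse 1 (1718 genes at an unadjusted p under 0.05), 1193 without control mouse 2, 5 without control mouse 3, and 6, 7 and 8 without aPU.1KO mice 1, 2 and 3. Initiation factor genes called numbered 1, against 0 with that minimum, 4 with DESeq2 and from 0 to 2 with each mouse left out, 2 without control mouse 2 and 0 without each of the others. Genes called on the translation lists numbered 0, against 11 with DESeq2 and from 0 to 4 with each mouse left out, 4 without control mouse 2. The median log2 fold change of the members ran from 0.10 to 0.13 with each mouse left out. For 20 named members under 15 alternatives, 299 of 300 values moved by less than the replicate spread, the exception being Eif5a2 without aPU.1KO mouse 3 (-0.49 against -0.07), and 6 changed sign, in Eif4a1, Eif4g1 and Eif5a2 as given above. Eif4e1b, with 2 to 21 counts per library, did not pass the filter on low counts. The paper states that the control mice of the study were littermates. The labels do not give the litter of a mouse, so the groups were compared unpaired and any litter structure was left out.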
